A study of Mus musculus with 2 samples.

Results

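The genes followed here encode 10 scavenger and endocytic receptors of the liver sinusoid: Stab1, Stab2, Mrc1, Lyve1, Cd36, Fcgr2b, Clec4g, Lrp1, Msr1 and Colec12. GATA4 occupied sites (OS) were counted as theirs when the midpoint of the site lay in the gene body or within 50 kb of it on mm9, with gene bodies from GENCODE M1. This rule took 16 of the 4409 common OS, and 8 of the 10 genes had at least 1. The OS were chosen by their called positions, and the genes with earlier results of these data in view, so counts of OS per gene are a description and were not tested. Among all 22367 protein-coding genes, 27.7% had a common OS by the same rule. Bodies between the shortest and the longest receptor body (12347 to 170348 bp) were found for 11219 of them, and 32.2% of these had one. This is a range and not a match of length gene by gene. At least 2 common OS were found at 5 of the 10 receptors and at 9.15% of all protein-coding genes. Nothing is read from these differences.

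GATA4 was immunoprecipitated from whole liver of mice on a C57BL/6 x Sv129 background, aged 2 to 3 months by the labels (the methods give slightly older ages), and input DNA from liver of the same kind was the background of the peak calls. No transgene, treatment or mutant genotype is given for either sample. The methods describe 2 biological replicates with whole liver of 2 mice each, but the labels hold 1 ChIP and 1 input sample and each list is a single set for both replicates, so no value per replicate or animal can be given. ChIP-seq counts DNA fragments that come down with a protein, and a peak is a stretch where they outnumber the input. Whole liver holds hepatocytes, endothelial cells, Kupffer cells and other cells, and an OS cannot be assigned to any of them from these files. Occupancy is also not expression, so the levels of the receptors were not measured here. A common OS is a peak of the caller SPP that met a peak of the caller MACS2. Every peak carries the same display score of 1000, and the only order within a list is the number in the name of each peak, where 1 is the first. What this numbering follows is not stated in the files, so numbers are given as places in a list and not as strengths.

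Liver sinusoidal endothelial cells line the capillaries of the liver without a closed basement membrane and clear macromolecules from blood by receptor-mediated endocytosis. Stabilins take up hyaluronan, modified lipoproteins and other waste ligands, the mannose receptor binds sugar residues and collagen fragments, and the inhibitory Fc receptor of this set takes up immune complexes. Kupffer cells, the resident macrophages, share several of these receptors, among them the class A scavenger receptor Msr1 and the mannose receptor, and LRP1 is a large endocytic receptor that hepatocytes use for remnant lipoproteins. GATA4 is a zinc finger factor that binds WGATAR, that is A or T, then GATA, then A or G. It has a known part in the development of sinusoidal endothelium.

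The sequence of the OS with the lowest number in the common list is shown for 7 of the 8 genes that had one, so that the GATA matches counted below, and their absence in full form at Stab1, can be seen in their surroundings. All are on the plus strand of mm9, read 5′ to 3′, with WGATAR in capitals. A match on the minus strand is printed as its reverse complement. Stab1 had no WGATAR, and the capitals mark the 5 bases of a shorter WGATA match on the minus strand instead. Bases that an annotated transcript has as untranslated exon were left out at Stab1, Stab2 and Clec4g. For Clec4g, Lyve1 and Fcgr2b the stretch was taken from the central 120 bases and for Stab2 from the central 300, while those of Msr1 and Cd36 are complete.
Stab1 (chr14:31981828-31981993): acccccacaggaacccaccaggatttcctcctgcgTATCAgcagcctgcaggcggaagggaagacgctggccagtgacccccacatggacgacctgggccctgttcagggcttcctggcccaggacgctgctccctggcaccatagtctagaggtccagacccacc
Stab2 (chr10:86455481-86455678): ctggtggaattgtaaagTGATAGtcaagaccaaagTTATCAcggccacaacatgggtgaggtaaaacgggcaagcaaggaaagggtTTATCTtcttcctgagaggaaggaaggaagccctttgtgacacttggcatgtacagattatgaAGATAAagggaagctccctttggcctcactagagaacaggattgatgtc
Clec4g (chr8:3717677-3717737): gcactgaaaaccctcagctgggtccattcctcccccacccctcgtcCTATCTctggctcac
Lyve1 (chr7:118035307-118035426): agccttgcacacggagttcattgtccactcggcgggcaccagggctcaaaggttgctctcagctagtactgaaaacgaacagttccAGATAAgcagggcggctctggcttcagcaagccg
Msr1 (chr8:40722981-40723075): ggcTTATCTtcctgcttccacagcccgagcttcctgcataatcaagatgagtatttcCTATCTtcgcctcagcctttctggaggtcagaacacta
Cd36 (chr5:17410697-17410888): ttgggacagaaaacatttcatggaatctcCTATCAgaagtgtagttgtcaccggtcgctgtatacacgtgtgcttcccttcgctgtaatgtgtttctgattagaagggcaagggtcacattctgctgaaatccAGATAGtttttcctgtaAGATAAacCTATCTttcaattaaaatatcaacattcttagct
Fcgr2b (chr1:172886733-172886852): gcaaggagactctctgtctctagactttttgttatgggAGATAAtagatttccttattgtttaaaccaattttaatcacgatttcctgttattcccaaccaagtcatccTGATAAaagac

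Stabilin-2 is the main clearance receptor for hyaluronan in sinusoidal endothelium, and its gene had the most common OS of the 10, with 5. Stab2 (ENSMUSG00000035459.9) runs on the minus strand from 86303943 to 86470770 of chromosome 10. OS number 200 (chr10:86455377-86455679, 303 bp) and OS number 592 (chr10:86453440-86453676, 237 bp) both lay in intron 3 of 68, with midpoints 15242 and 17212 bp from the TSS and 1970 bp from each other. These were the 2 OS of Stab2 that came first in both lists, since their MACS2 peaks were numbers 273 and 532. The intron number is that of the longest coding transcript. Of the central 300 bases of OS number 200, 102 were untranslated exon in another annotated transcript. The other three lay upstream. OS number 1635 (chr10:86478261-86478441) was 7581 bp from the TSS, OS number 2800 (chr10:86502646-86502804) 31955 bp and OS number 2075 (chr10:86514552-86514703) 43857 bp. The MACS2 peaks over them were numbers 1250, 1909 and 2296. For the 2 farthest OS the nearest protein-coding TSS was not that of Stab2 but that of 1700113H08Rik, at 18066 and 6164 bp. Over all protein-coding genes, 0.474% had at least 5 common OS by the same rule.

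Every Stab2 OS held WGATAR. OS number 200 had 4 matches, at -27.5, -9.5, 41.5 and 104.5 bp from its midpoint, all seen in the sequence above. OS number 592 and OS number 1635 had 2 each, and the 2 farthest OS had 1 each. MACS2 called 2 further peaks upstream of Stab2 that SPP did not, numbers 5647 and 5709, at 6644 and 4334 bp from the TSS. Both stood near the end of the MACS2 list.

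Stabilin-1, which sinusoidal endothelium and tissue macrophages use for endocytosis and intracellular sorting, had its leading OS at the promoter. Stab1 (ENSMUSG00000042286.7, chr14:31952199-31981827, minus strand) had OS number 429 (chr14:31981757-31981993), whose midpoint was 48 bp upstream of the TSS and which reached 71 bp into exon 1. It was number 195 in the MACS2 list. This OS had the highest GC content of the 16, at 62.4%, and 0 WGATAR, although 2 matches to WGATA or GATAR were present. The second OS, number 3159 (chr14:31994798-31994932), lay 13038 bp upstream in intron 11 of the neighbouring gene Nisch, 209 bp from the start of a Nisch transcript. Its midpoint was within the body of Tnnc1 on the plus strand as well. This second OS also held no WGATAR, and 1 shorter match. MACS2 alone called number 4310 at 14485 bp upstream, likewise nearer to Nisch and without WGATAR. The 2 OS of Stab1 were the only ones of the 16 without WGATAR.

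The mannose receptor gene Mrc1 (ENSMUSG00000026712.2, chr2:14151041-14253684, plus strand) held the OS with the lowest number of the set. OS number 62 lay in intron 1 of 29, 6101 bp from the TSS, and was number 176 in the MACS2 list. Of its 4 WGATAR matches, the pair nearest to each other stood on opposite strands with 5 bp between them. OS number 1142 (chr2:14160862-14161087) followed in intron 2, 9933 bp from the TSS and 3832 bp from the first, with 2 matches and MACS2 number 1249. Both OS of Mrc1 and the 2 intronic OS of Stab2 lay in introns 1 to 3, in the 5′ part of long genes.

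Clec4g, the gene for a C-type lectin of liver and lymph node sinusoidal endothelium, had 1 common OS. OS number 3309 (chr8:3717577-3717896) lay in intron 6 of 8 and covered 90 bp of exon 6. Its midpoint was 2915 bp inside the longest coding transcript. It was number 2825 in the MACS2 list and held 2 WGATAR, of which 1 was 10.5 bp from the midpoint. This gene (ENSMUSG00000074491.3, chr8:3707064-3720651, minus strand) had more peaks that only a single caller made than any other of the 10. SPP alone called number 4760 of its 4811 peaks in an exon of another transcript, 12688 bp from the TSS, and MACS2 alone called numbers 5304 and 5359. The same common OS was within 50 kb of Cd209a, a related lectin gene next to Clec4g.

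At the remaining receptors with an OS, most sites stood outside the gene. Lyve1 (ENSMUSG00000030787.3, chr7:117994121-118006467, minus strand), a hyaluronan receptor of lymphatic and sinusoidal endothelium, had OS number 2320 (chr7:118035207-118035526) 28899 bp upstream. That OS lay in intron 15 of Mrvi1, yet the TSS of Lyve1 was the nearest, and it held 1 WGATAR and was number 3042 in the MACS2 list. Msr1 (ENSMUSG00000025044.8, chr8:40667054-40728032, minus strand), which takes up modified low density lipoprotein, had OS number 2917 (chr8:40722981-40723075) in intron 1 of 9. At 95 bp it was the narrowest of the 16, it held 2 WGATAR, and it came earlier in the MACS2 list, at 1498. The other Msr1 OS, number 3254 (chr8:40759515-40759834), was 31642 bp upstream, with 1 WGATAR and MACS2 number 2090.

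Cd36, the gene for a class B scavenger receptor and fatty acid transporter, had both of its OS upstream. OS number 777 (chr5:17410697-17410888) was 16015 bp from the TSS and number 838 in the MACS2 list. It held 4 WGATAR, as many as the leading OS of Stab2 and Mrc1, and 2 of them were 2 bp apart on opposite strands. OS number 2951 (chr5:17444445-17444764, MACS2 number 2523) held 2 WGATAR and was nearer to Gnat3, whose TSS was 23835 bp away. Its midpoint was 49827 bp from Cd36 (ENSMUSG00000002944.8, chr5:17287508-17394777, minus strand), the site closest to the limit of 50 kb from inside. MACS2 alone called number 1776 in addition, 10329 bp upstream of Cd36 and with 4 WGATAR.

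Fcgr2b (ENSMUSG00000026656.9, chr1:172890689-172906678, minus strand), the inhibitory receptor for IgG, had the only OS downstream of a gene. OS number 3121 (chr1:172886633-172886952) was 3897 bp past the end of the gene, held 2 WGATAR and came late in the MACS2 list, at 4751. MACS2 alone called number 4789 in intron 5 of 6. The nearest common OS beyond the limit lay at this gene too, 57373 bp from its body and number 4144 in the list, and it was closer to the related Fc receptor genes Fcgr4 and Fcgr3.

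Lrp1 and Colec12 had no common OS and no SPP peak within 50 kb. Lrp1 (ENSMUSG00000040249.9, chr10:126975217-127058204, minus strand) had 1 MACS2 peak, number 3732, at 25052 bp past its end and 1830 bp from the TSS of Ndufa4l2, and its nearest common OS was 117674 bp away. Colec12 (ENSMUSG00000036103.8), a collectin-type scavenger receptor on chromosome 18, had the longest body of the 10 at 170348 bp. Its nearest common OS was 314260 bp away, and MACS2 called no peak in its window either. A peak that was not called says only that no signal passed the callers' thresholds.

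**Figure D1:**
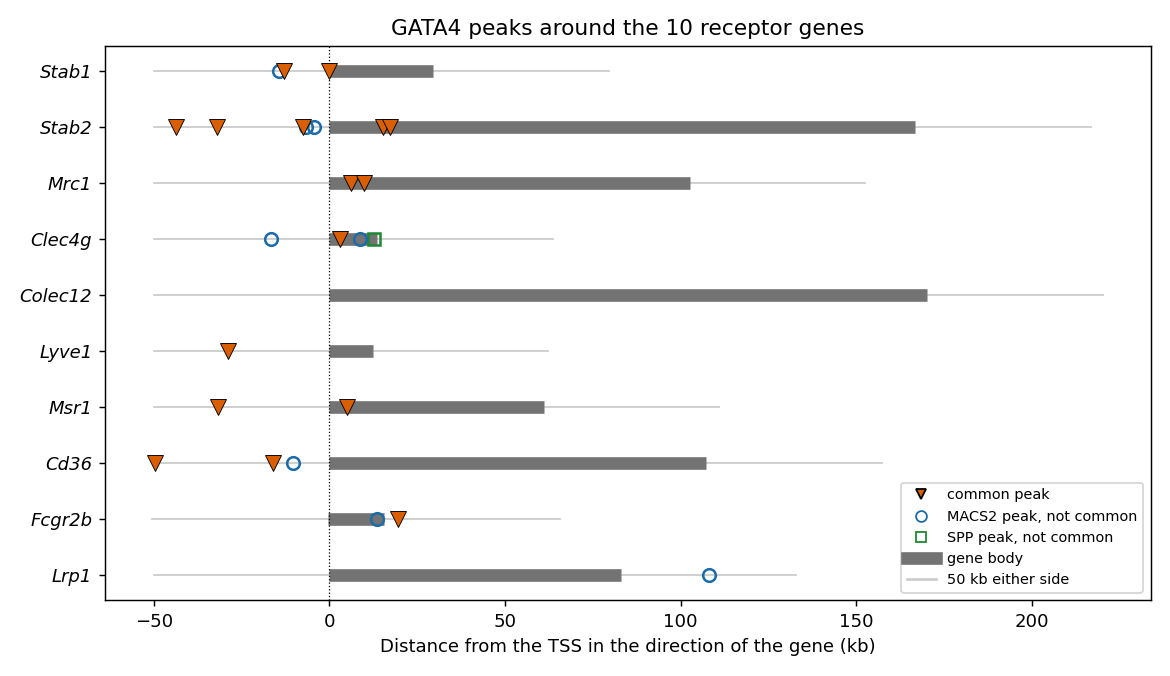
Each row is a gene drawn to scale in its own direction, with the distance from the TSS in kb on the horizontal axis, the gene body as a dark bar, and midpoints of common OS (triangles) and of peaks made by MACS2 (circles) or SPP (square) alone. Common OS gather from 49827 bp upstream to 19466 bp downstream of the TSS, and the rows of Lrp1 and Colec12 hold none.

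Of the 16 OS, 9 lay upstream, 6 in introns, 1 downstream and 0 had their midpoint in an exon. The share inside a gene body was thus 37.5% (Wilson 95% interval 18.5 to 61.4), and these OS lay in Stab2, Mrc1, Clec4g and Msr1. Counted by genes, 4 of the 10 receptors had a common OS in the body, beside 7.68% of all protein-coding genes. Among genes with bodies in the range of the receptors, 10.5% did. Within 10 kb 6 of the 10 receptors had one, beside 13.7% of all protein-coding genes, and within 5 kb 6 had one, beside 11.3%. For 12 of the 16 OS (75.0%, 50.5 to 89.8) the nearest protein-coding TSS was that of the receptor itself. By genes, 8 of the 10 receptors had at least 1 such OS, beside 12.4% of all protein-coding genes. The shares of OS in this paragraph were not counted over all common OS, and they cannot be set against shares of genes. The MACS2 list gave 24 peaks at 9 of the genes, with 33.9% of all protein-coding genes as background, and the SPP list 17 peaks at 8 genes, with 29.3%.

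**Figure D2:**
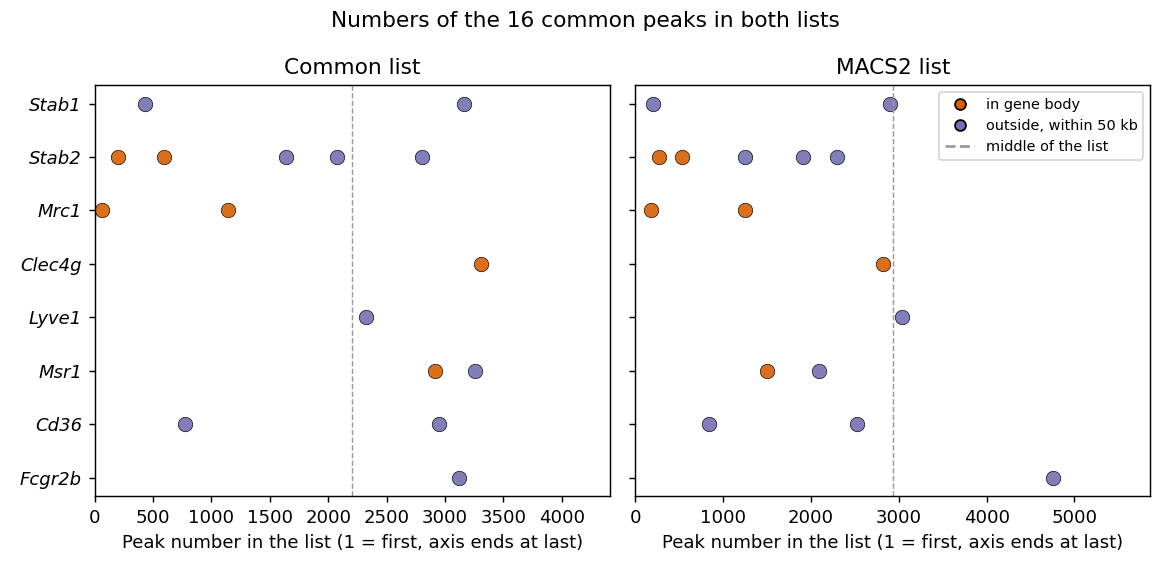
The 16 common OS by gene are plotted against their number in the common list of 4409 (left) and in the MACS2 list of 5867 (right), where 1 is the first and colour tells OS in the gene body from those outside. Both OS of Mrc1 and 4 of the 5 of Stab2 sit left of the middle of the common list, while those of Clec4g, Lyve1, Msr1 and Fcgr2b sit right of it.

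The numbers of the 16 OS ran from 62 to 3309 with a median of 2197.5, beside a median of 2205 over all common OS. The median depended on the reach, since it was 1142 for the 9 OS within 10 kb, 867 for the 6 in gene bodies and 1388.5 for the 12 nearest to the TSS of their own receptor. In successive equal parts of the list, of about 1102 OS each, lay 5, 3, 7 and 1 of the 16. Early numbers came from Mrc1, Stab2, Stab1 and Cd36. In the MACS2 list the numbers ran from 176 to 4751 with a median of 1703.5, beside 2195 over all common OS. All 16 were wholly covered by their MACS2 peak, as were 4260 of all 4409. Widths ran from 95 to 320 bp with a median of 237 bp (190 bp over all), and the median GC content was 48.8% (49.4% over all).

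A WGATAR sequence was found at 14 of the 16 receptor OS (87.5%, 64.0 to 96.5) and at 82.9% (81.8 to 84.0) of all common OS, which include them. Equally wide windows shifted rightwards by 5000 bp held it in 6 of 16 cases (37.5%, 18.5 to 61.4), and in 31.9% (30.5 to 33.3) over all OS. With the shorter WGATA or GATAR, all 16 OS had a match, beside 92.9% of all common OS and 9 of the 16 windows. At least 2 WGATAR were found in 10 OS (62.5%, 38.6 to 81.5), whereas the share over all was 34.7% (33.3 to 36.1), a difference that was not tested. The receptor OS were also wider, with a median of 237 bp against 190 bp, and these counts were not adjusted for width. The 16 OS held 30 matches, 14 on the plus and 16 on the minus strand. They read AGATAA in 11 cases, TGATAA in 10, AGATAG in 5 and TGATAG in 4, and AGATAA was also the most frequent form over all OS, with 44.6%. Within 50 bp of the midpoint lay 19 of the 30 (63.3%), beside 73.8% over all.

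**Figure D3:**
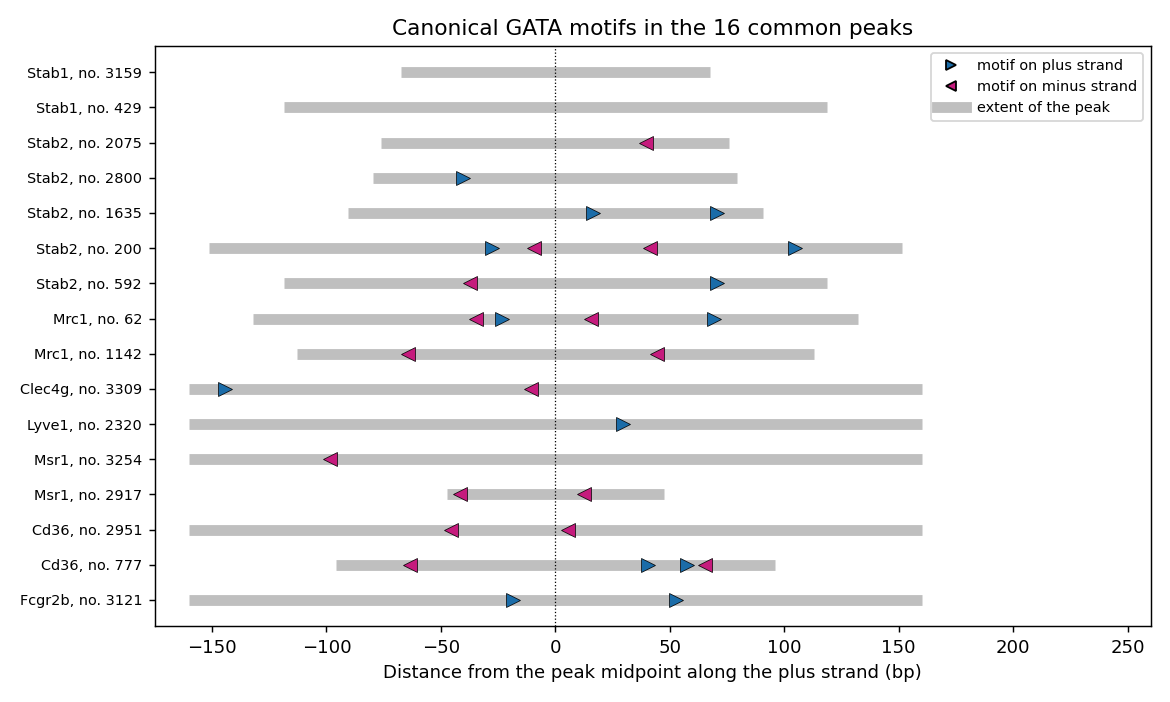
Each row is one of the 16 common OS, drawn as a grey bar of its width around its midpoint, with arrowheads at the WGATAR matches of either strand and the distance from the midpoint in bp along the plus strand. Rows hold between 0 and 4 matches, and those without any are both of Stab1.

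Sequences of other factor families were searched on both strands as exact letters in the same OS. GGAAGT, an ETS-type sequence, was in 3 of 16 OS (2 of Stab2 and that of Lyve1), beside 25.3% of all common OS. The AP-1-type TGANTCA was in 0 of 16 (upper bound of the Wilson interval 19.4%) and in 7.55% over all. The forkhead-type TGTTTAC or TGTTTGC was in 1, at Fcgr2b (12.2% over all), the C/EBP-type TTGCNNAA in 2, at Lyve1 and Fcgr2b (12.7% over all), and the E-box CANNTG in 12 (60.3% over all). Of these 28 matches, 1 shared a base with a WGATAR, an E-box. With 16 OS the intervals for these 5 sequences were wide, and each held the share over all OS. The windows shifted by 5000 bp held them, in the order above, in 2, 0, 1, 4 and 11 of 16 cases. Beside all common OS, such windows held them in 12.9%, 5.90%, 7.28%, 8.62% and 65.0%.

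The same rule was applied to 51 related receptors and adaptors, a list written with earlier results of these data known. Of these, 22 (43.1%) had a common OS within 50 kb, beside 27.7% of all protein-coding genes. In the body 6 of the 51 had one, beside 7.68%, and 9 of the 51 had one whose nearest TSS was their own, beside 12.4%. The lipoprotein receptor-related gene Lrp5 had 4 OS (numbers 952, 1104, 1601 and 4395), 3 of them in its body, and Lrp6 had 2 (numbers 480 and 1769). Lrp10 had 3 (numbers 2447, 2565 and 2567), Lrp2 had number 343 and Lrp8 number 2139, all outside the gene. The endocytic adaptor gene Dab2 had both of its OS, numbers 875 and 1801, in the gene body. Scarb1, the hepatic receptor for high density lipoprotein, had 2 in its body, numbers 815 and 1057. The class A receptors Marco, Scara3 and Scara5 and the mannose receptor relatives Mrc2, Ly75 and Pla2r1 had none. The same was true of 72.3% of all protein-coding genes, so nothing is read from these absences. Of the 5 Fc receptor genes 3 had an OS nearby. Fcgr3 and Fcgr4 shared number 4144, the site just beyond the reach of Fcgr2b, and Fcer1g, the signalling chain of activating Fc receptors, had numbers 376, 441 and 2613. Among the lectins, Asgr1 and Asgr2, the subunits of the hepatocyte asialoglycoprotein receptor, shared number 1954, Clec7a had number 2347 and Cd209a the site of Clec4g. Scarf1 had numbers 1605, 2553 and 3192, and Cxcl16, Cd68 and Ager had numbers 1112, 256 and 3079, all outside the gene. The recycling receptors Igf2r and Tfrc had numbers 91 and 3975, also outside.

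Marker genes of liver cells were counted the same way, for occupancy and not for cell content. The lists were again written with earlier results of these data known, and no difference was tested. Over all protein-coding genes, 27.7% had a common OS by this rule, 7.68% had one in the body and 0.474% had at least 5. Of 8 endothelial genes 7 had a common OS, and 6 had one in the body. They had 29 OS in all, with 7 at Eng, 6 at Ptprb, 5 at Tek and 5 at Oit3. Of 10 hepatocyte genes 6 had a common OS (11 OS), among them Alb with 3, but only 1 had one in the body. Of 8 Kupffer cell genes 1 had one, Cd68, whose OS was 49904 bp from the body. The Kupffer cell genes Cd68, Clec4f, Vsig4, Timd4 and Marco are also on the list of related receptors. None of the 6 stellate cell and 5 cholangiocyte genes had a common OS.

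**Figure D4:**
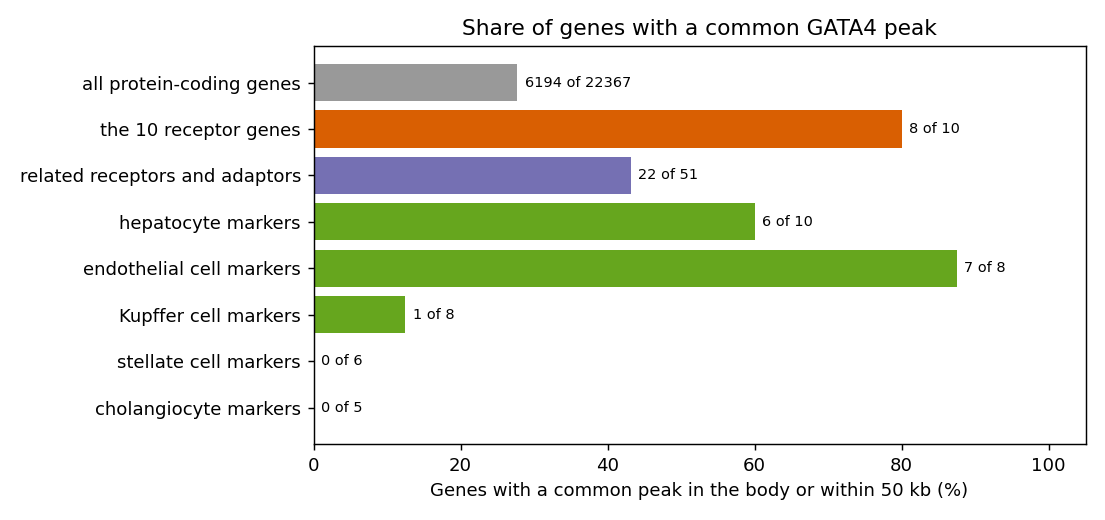
Bars give the percent of genes in each list with at least 1 common OS in the body or within 50 kb, with the number of genes beside each bar. The 10 receptors stand at 80% and the 8 endothelial markers at 87.5%, beside 27.7% of all protein-coding genes. The lists were not drawn at random, and those of Kupffer cell markers and related receptors share genes.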

How the data were processed

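Per the labels, the methods and the submitters' processing notes, the authors fixed whole mouse liver, precipitated GATA4 with the C-20 antibody, aligned reads to mm9 with Bowtie 0.12.7 and kept uniquely placed reads. Peaks were called with a modified SPP and with MACS2 2.0.10 for both replicates separately and for their combined reads, with pooled input as background, and were limited by their reproducibility between replicates (IDR). SPP peaks were ordered by signal and MACS2 peaks by p-value for that step, but whether the deposited numbers keep this order is not stated. Both lists were intersected with bedtools 2.16.1, keeping SPP coordinates. The deposited files are browser tracks with position, peak number and a score of 1000 for each of 4811 SPP, 5867 MACS2 and 4409 common peaks. They hold no read counts, so the depth behind a single peak is unknown.

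Peaks were joined by midpoint to GENCODE M1 gene bodies on the same build, extended by 50 kb, and coordinates were turned to 1-based. Protein-coding genes on chromosomes 1 to 19, X and Y were the background. The TSS is that of the longest protein-coding transcript of a gene, and nearest TSS used all protein-coding transcripts. Motifs were matched exactly on both strands. Intervals are Wilson 95% intervals, cover counting error only, and treat OS as units. Overlap meant at least 1 bp. Adgre1 was found under an older symbol. All 10 receptors, every common OS of theirs and related genes with an OS were named by rule, except for items that are not reported here. Members and lists were chosen with earlier results of these data known, and no test was run. Alternatives were the reach, list, gene model, whole peaks, nearest TSS, the list up to number 2204, overlap and motif. Motif spacing, the background of genes in the range of receptor body lengths and the trimming of printed sequences were chosen after seeing the data. Promoter sequences on another build were not used here. Overlap and motif code was tested on simulated data. Python 3.11.15, numpy 2.4.6, scipy 1.17.1, pysam 0.24.0, matplotlib 3.10.9 and samtools 1.23.1 were used.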

Additional observations from a re-analysis of the deposited data

How the results depend on the processing

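The count of OS at the receptors fell with a shorter reach, from 16 to 9 with 10 kb, 8 with 5 kb and 6 in the gene body alone, by construction. It was 8 with the common list up to number 2204. The number of receptors with an OS was 4 in the gene body alone, beside 7.68% of all protein-coding genes. It was also 4 with the list up to number 2204, and the median per receptor was 0 in both. For that shorter list no share over all protein-coding genes was counted, so nothing is read from its count of receptors. Of the related genes, 13 of 51 had an OS within 10 kb (13.7% of all protein-coding genes), 10 within 5 kb (11.3%), 6 in the body (7.68%) and 9 with the nearest TSS (12.4%), and of the 37 marker genes 7 had one in the body. The median list number of 2197.5 was 1142 within 10 kb, 867 in the body and 1388.5 with the nearest TSS, all between 592 and 3121, the 95% interval of the median from the order of the 16 numbers. The share of OS in the gene body was 66.7% of those within 10 kb. WGATAR was present in 100% of the OS inside gene bodies, and WGATA or GATAR in 100% of all 16. A reciprocal overlap of 50% left 37.5% of the OS met by a MACS2 peak, and the MACS2 peaks over these OS were 407 to 846 bp wide. Of the alternatives for these summaries, 47 stayed within 1.5 times the count or within the interval of the share or median. The other 17 did not. The medians of the list number given above are among the 47 only because the interval from 592 to 3121 is wide. For the counts at single receptors, 61 of 90 alternatives stayed within 1.5 times. No paired analysis was possible because the labels give 1 ChIP sample, with 1 list per caller for both replicates. No read depth is known for a single OS, so no replicate error could be given.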

Other observations

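After the sequences had been seen, the spacing of WGATAR matches within an OS was measured. A pair with at most 10 bp between both matches occurred at 2 of the 16 receptor OS (12.5%, 3.50 to 36.0 by the Wilson method), the leading OS of Mrc1 (5 bp) and of Cd36 (2 bp), and in 322 of all 4409 common OS (7.30%, 6.57 to 8.11). The leading OS of Stab2 had its closest pair 12 bp apart, and in each of these 3 OS the closest pair stood on opposite strands. In the other seven OS with 2 or more matches, the smallest spacing ran from 45 to 128 bp. The interval for the 16 OS holds the share over all OS.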
